A study of Mus musculus with 2 samples.

Results

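Single cell RNA sequencing of whole mouse lung by Drop-seq was searched for pericytes, the cells that wrap around capillaries. A cell was taken as a pericyte when it held at least 1 unique molecular identifier (UMI, 1 counted transcript) of Pdgfrb, and at least 3 UMIs summed over Pdgfrb, Notch3, Mcam, Cspg4, Agtr1a, Vsnl1 and Art3. It also had to hold under 2 UMIs of the smooth muscle actin gene Acta2 and none of the epithelial gene Epcam, the endothelial gene Pecam1 or the leukocyte gene Ptprc. Of 8003 cells with at most 10% mitochondrial UMIs, 131 met the rule. There were 35 in Batch 1 and 96 in Batch 2. Each batch was the whole lung of 1 female C57BL/6J mouse of wild-type genotype, dissociated at postnatal day 1, and no treatment, genotype or time was compared. The rule used measured counts, so the genes in it are described without a test. Pairs of values below are for Batch 1 and then Batch 2, and CPM is a gene's UMIs per 1000000 UMIs summed over the cells of a class.

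Pericytes share a basement membrane with the endothelium of small vessels and are recruited to it by platelet-derived growth factor B, which endothelial cells secrete and the receptor encoded by Pdgfrb binds. Notch3 receives ligands from the endothelium and is needed for mural cell maturation, while soluble guanylate cyclase lets mural cells answer nitric oxide with cyclic GMP and relax. Vascular smooth muscle, the other mural cell, differs by its dense contractile apparatus of actin, myosin and tropomyosin. In the lung, pericytes lie along the alveolar capillaries, which expand steeply after birth.

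The filtered libraries held 4432553 UMIs in 2388 cells and 18232639 UMIs in 5615 cells, with medians of 1387 and 2014 UMIs per cell, and 0 barcodes were shared. Batch 1 had 1 barcode over the mitochondrial limit and Batch 2 had 1940. The pericytes held 56884 and 199880 UMIs, with a median of 1179 and 1790 UMIs and of 753 and 1054 genes per cell. RNA of other cells was present in the pericytes of both batches. The 4 globin genes reached 48432 and 28282 CPM, and in Batch 2 a single cell gave 4310 of their 5653 UMIs, leaving 6985 CPM without it. The surfactant gene Sftpc reached 6311 and 956 CPM, where 1 cell of Batch 1 gave 295 of 359 UMIs. The club cell gene Scgb1a1 reached 52.7 and 2416 CPM, where 1 cell of Batch 2 gave 402 of 483 UMIs. In Batch 1 the 10 endothelial markers summed to 89 UMIs, of which 46 came from 1 cell, and 1 of the 10, Emcn, was at 0 in both batches. The 9 immune markers summed to 9 and 17 UMIs with Spi1 and Laptm5 at 0, and the 5 mesothelial markers summed to 3 and 0 UMIs.

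Pericytes made up 1.47% of the filtered cells of Batch 1 (exact 95% binomial interval 1.02 to 2.03) and 1.71% of those of Batch 2 (1.39 to 2.08). The intervals overlap, and they cover counting error only. With every cell thinned to 1000 UMIs the shares were 0.913% and 0.953%. These are shares of dissociated cells that met the rule at this depth.

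Among the genes of the rule, Pdgfrb was present in every member by construction, at 1248 and 1196 CPM against 13 and 12.6 CPM over all other filtered cells. Notch3 was found in 51.4% and 55.2% of members, at 387 and 375 CPM against 11 and 7.93. Both levels were alike in the mice, and nearly as many members lacked a UMI of Notch3 as held one. Mcam, a cell adhesion molecule also made by endothelium, was found in 65.7% and 67.7% of members and stood at 650.5 and 640.4 CPM against 84.6 and 88.8 in the other cells. Cspg4, the NG2 proteoglycan, was found in 25.7% and 27.1% at 334 and 150.1 CPM. Agtr1a, the angiotensin II receptor, was found in 22.9% and 39.6% at 176 and 275 CPM against 1.6 and 2.16. Vsnl1, a neuronal calcium sensor, was found in 31.4% and 24% at 264 and 145 CPM against 5.26 and 1.33. Art3, an ADP-ribosyltransferase, was found in 20% and 27.1% at 176 and 165 CPM. Acta2 had to be under 2 UMIs and stood at 52.7 and 40 CPM.

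The 7 summed genes gave a median of 5 UMIs per member in Batch 1 (range 3 to 10) and 6 in Batch 2 (3 to 16), from a median of 3 different genes. Just inside the limit, 9 and 17 members had a sum of 3. Their summed CPM of 26 pericyte genes that the rule did not use, among them Rgs5, Higd1b, Cox4i2 and Postn, was 14477 and 14072. Just outside, 12 and 25 cells with a sum of 2 had 10802 and 6311 CPM of those 26 genes, and 22 and 59 cells with a sum of 1 had 4531 and 2615. At the Acta2 limit, 3 and 8 members held 1 UMI of Acta2, with 22029 and 17404 CPM of the 26 genes. The 3 Batch 2 cells with 2 UMIs of Acta2 had 14516 CPM, and Batch 1 held 0 such cells.

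The 26 genes outside the rule served as a check of the label. They were listed with earlier results of these data known and the members were chosen from the same counts, so the values of this check are a description with no test. They summed to 14714 and 15990 CPM in the pericytes, to 1017 and 507 CPM in all other filtered cells and to 1118 and 1036 CPM in cells gated as fibroblasts. That gate took cells with Tcf21, under 2 UMIs of Acta2 and no Epcam, Pecam1 or Ptprc. Cells with Pdgfrb that fell short of the pericyte rule could enter it. After thinning to 1000 UMIs, Pdgfrb was found in 1.31% and 1.06% of the fibroblasts. Of the 35 and 96 members, 34 and 95 held at least 3 UMIs of the 26 genes, with a median of 23 and 29.5 UMIs. After thinning to 1000 UMIs, at least 3 UMIs were seen in 92.0% and 97.7% of the pericytes. The same was true of 10.1% and 8.29% of the fibroblasts, 2.98% and 1.78% of the cells with Pecam1, 0% and 0.753% of those with Epcam and 3.57% and 1.72% of those with Ptprc. Nearly every member thus carried other pericyte genes, and so did cells outside the rule. Of 62 and 146 thinned cells with 10 or more UMIs of the 26 genes, 42 and 71 were outside the rule, 32 and 44 of them without a UMI of Pdgfrb.

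**Figure D1:**
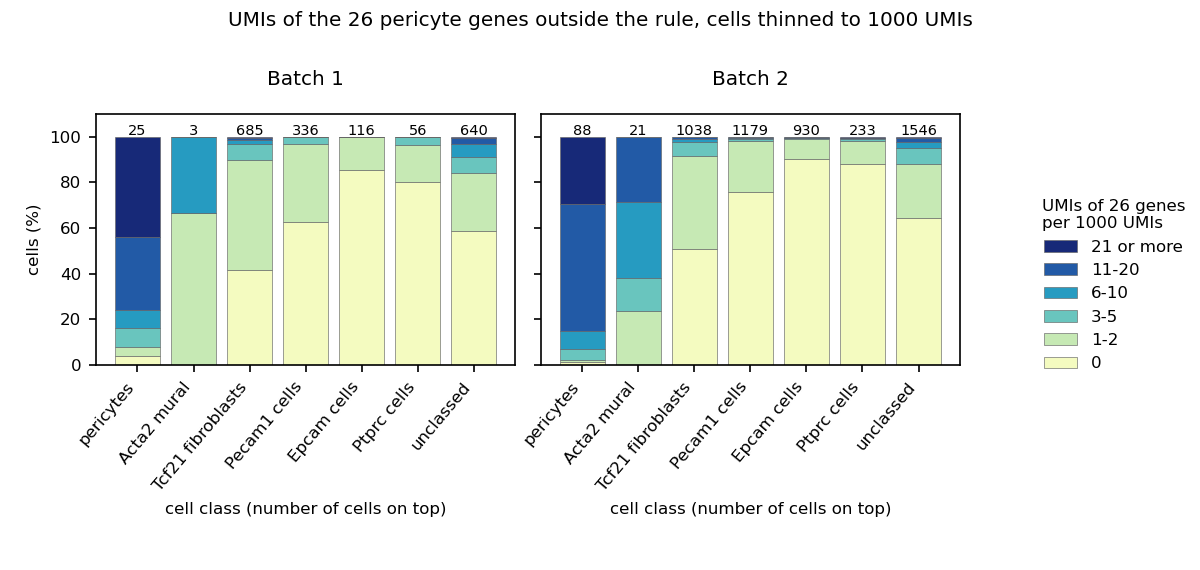
Percent of cells of each gated class (stacked bars, with the number of cells on top) by their UMIs of the 26 pericyte genes that the rule did not use, after thinning each cell to 1000 UMIs. At least 3 UMIs were present in 92.0% and 97.7% of the pericytes and in 10.1% and 8.29% of the fibroblasts. The Acta2 mural cells reached 33.3% of 3 cells and 76.2% of 21 cells.

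The 2 members with 0 UMIs of the 26 genes were unlike each other. The one in Batch 1 had 2420 UMIs, its 4 rule UMIs all came from 1 gene, and it held 6 UMIs of Tcf21 and 7 of the matrix fibroblast markers. The one in Batch 2 had 1351 UMIs and 4 rule UMIs over 3 genes. Members with a UMI of Tcf21, a transcription factor of lung fibroblasts, numbered 14 of 35 (40.0%) and 28 of 96 (29.2%). The 26 genes stood at 19953 and 17703 CPM in these members and at 12445 and 15133 CPM in the members without Tcf21, so that Tcf21 did not mark the members poorest in pericyte genes. The 8 matrix fibroblast markers stood at 698 and 120 CPM with Tcf21 and at 277 and 135 CPM without it, against 4217 and 4444 CPM in the fibroblasts. After thinning, Tcf21 was found in 40.0% and 18.2% of the pericytes and in 6.85% and 4.41% of the cells with Pecam1, which should lack it.

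**Figure D2:**
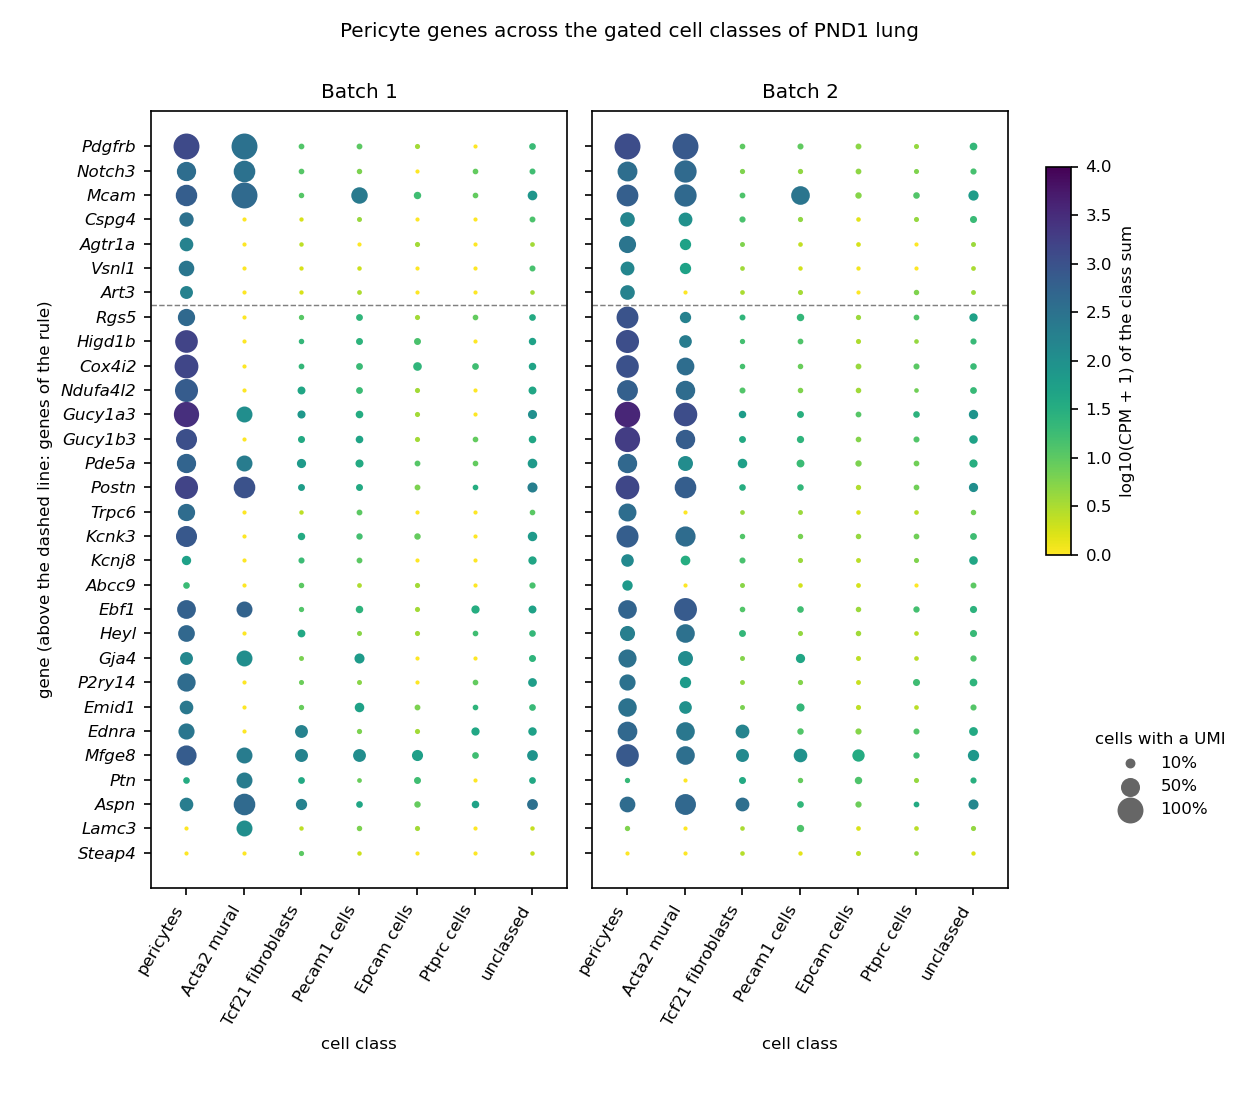
Genes (rows, with the rule genes above the dashed line) in the 7 gated classes (columns) of each batch. Colour gives log10(CPM + 1) of the class sum and dot area grows with the percent of cells with a UMI. The pericyte columns hold the highest levels of Higd1b (1547 and 1146 CPM), Cox4i2 (1459 and 1011 CPM) and Trpc6 (404 and 385 CPM).

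The genes outside the rule that stood furthest above all other filtered cells in both batches covered nitric oxide signalling, a calcium channel, mitochondrial proteins and adhesion molecules. The ratios are descriptions with no test. The 20 furthest genes, in order of the lower of the batch ratios, began with Trpc6, a receptor-operated calcium channel, whose log2 ratio to the rest was 6.10 and 7.0. It was followed by Tmem178, a regulator of calcium flux, at 6.05 and 6.08. Next stood a pair of mitochondrial inner membrane genes, Higd1b at 5.65 and 6.68 and the cytochrome c oxidase subunit Cox4i2 at 5.61 and 6.53. The endothelial-type lipase Lipg stood at 5.53 and 6.06. Fjx1 stood at 5.48 and 5.78, and Fam101a, a regulator of the actin cytoskeleton, at 5.89 and 5.35. Gucy1a3 and Gucy1b3, the alpha and beta subunits of soluble guanylate cyclase, stood at 5.44 and 6.38 and at 4.93 and 6.16. Cdh2, the N-cadherin by which pericytes contact endothelium, stood at 5.40 and 5.44. Among the other 10 were Naalad2, Pdzd2, Fam162b, Klhl23, Pcdh18, Clstn2, Cldn1, Fst and Ndufa4l2, with Ndufa4l2 at 4.49 and 5.92. All 20 kept a log2 ratio over 1 in both batches after thinning, without likely doublets and without members holding 10 or more Sftpc UMIs. The genes were chosen for the largest ratios, so this bar was low and passing it is a description only.

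For the tests, UMIs were summed by class and batch and the 7 gated classes of both mice were fitted together, with the mouse as a block. The pericytes were compared with Tcf21 fibroblasts (871 and 1146 cells) and with Acta2 mural cells (3 and 21 cells, 9228 and 60806 UMIs), which met the pericyte rule apart from 2 or more UMIs of Acta2. The 12 gate genes were left out of every count. Any gene that goes along with a gate gene within single cells differs between the classes by that choice, so the tests measure the difference between gated classes over 2 mice. Fold changes are log2, pericytes over the other class, with standard errors.

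Against the fibroblasts, pericytes were higher in 433 genes and lower in 509 of 11369 tested, which is 8.29% of all genes (3.81% higher and 4.48% lower). The counts of list genes called against fibroblasts below are to be read beside these shares. The higher calls were 46.0% of all calls here, 65.0% with DESeq2 and 67.3% with library totals, and the median of all genes was -0.20, 0.07 and 0.14 under these scalings. Without the block the counts were 209 higher and 165 lower. The 10 genes furthest up were Trpc6, Lipg, Higd1b, P2ry14, Cox4i2, Hbegf, Lmcd1, Cdh2, Rtn4rl1 and Tmem178, and each kept its call in every alternative fit, the fit without the block included. P2ry14, a receptor for UDP-glucose, stood at 404 and 325 CPM in pericytes and 6.78 and 3.6 CPM in fibroblasts (5.82 ± 0.46, adjusted p = 9.01e-14). Hbegf, a membrane-anchored ligand of the EGF receptor, stood at 668 and 830.5 CPM against 9.79 and 13.9 (5.60 ± 0.40, adjusted p = 4.64e-15). Cdh2 stood at 492 and 380.2 CPM against 7.53 and 6.75 (5.51 ± 0.41, adjusted p = 3.13e-14). In both mice the class sums of these 3 genes stood far above the fibroblast sums. Single cells of the classes overlapped. After thinning, P2ry14 was found in 44% and 23.9% of pericytes and in 0.730% and 0.289% of fibroblasts. For Cdh2 these were 44% and 35.2% and 0.584% and 0.289%.

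Of the 26 pericyte genes outside the rule, 24 were tested, 19 were higher than in fibroblasts and 0 lower, beside 8.29% called among all genes. The choice of these genes and of the members favoured this count, which describes the list and is no independent evidence for the label. Called genes of this list recur in lists below, among them Heyl, Ebf1, Foxs1, Higd1b, Cox4i2 and Ndufa4l2. The counts of those lists are thus not separate from this one. Their median log2 fold change was 4.78, beside -0.20 over all genes, and 18 were called without the block. Rgs5, an inhibitor of G protein signalling long used as a pericyte marker, stood at 439 and 931 CPM in pericytes against 9.79 and 23.4 CPM in fibroblasts (5.02 ± 0.35, adjusted p = 3.72e-15). It was found in 40% and 68.8% of members. Postn, the matricellular protein periostin, stood at 1582 and 1426 CPM against 60.3 and 31.9 (4.73 ± 0.34, adjusted p = 3.85e-15). The 5 tested genes that were not called were Ednra, Itga7, Rem1, Ptn and Aspn. Ednra, the endothelin A receptor, stood at 264 and 455 CPM against 175 and 157 (adjusted p = 0.128), and Aspn at 211 and 395 CPM against 169 and 359. Steap4, used as a pericyte marker in other tissues, was at 0 UMIs in all 131 members, and Lamc3 had 0 and 1.

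Among the vasoactive genes, those of the nitric oxide pathway were higher in pericytes than in fibroblasts. Of 24 genes for receptors and for the cyclic nucleotide pathway, 18 were tested, 6 were higher than in fibroblasts and 1 was lower (4 and 1 without the block), with a median of 0.79. Of the higher genes, Gucy1a3, Gucy1b3, Pde5a and P2ry14 also belong to the 26 pericyte genes, so this count is not separate from theirs. Gucy1a3 was found in 94.3% and 95.8% of members, at 2918 and 3742 CPM in pericytes, 73.8 and 62.5 CPM in fibroblasts and 108 and 1184 CPM in Acta2 mural cells. It was higher than in fibroblasts by 5.20 ± 0.40 (adjusted p = 7.61e-14) and higher than in mural cells by 2.26 ± 0.41 (adjusted p = 0.001). Gucy1b3 stood at 1108 and 1961 CPM in pericytes, 37.7 and 37.3 CPM in fibroblasts and 0 and 691 CPM in mural cells, and its fold change against fibroblasts was 4.99 ± 0.40 (adjusted p = 1.11e-13). Both subunits of the enzyme were thus higher than in fibroblasts in both mice. Pde5a, the phosphodiesterase that breaks down cyclic GMP, was higher as well, at 527 and 465 CPM against 68.5 and 53.5 (2.71 ± 0.31, adjusted p = 3.04e-09). So was Prkg1, the kinase that cyclic GMP activates, at 158 and 105 CPM against 21.8 and 42.7 (adjusted p = 0.0303). The prostacyclin receptor Ptgir was called at 52.7 and 5.0 CPM, on 3 UMIs in Batch 1 and 1 in Batch 2. Npr2, a guanylate cyclase receptor for C-type natriuretic peptide, had 0 UMIs in the pericytes and was at least 3.18-fold lower than in fibroblasts at 52 and 28.3 CPM, taking 3 UMIs over the group as the limit that a count of 0 allows.

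Channels and gap junction genes went the same way. Of 15 genes for ion channels, pumps and connexins, 12 were tested, 7 were higher than in fibroblasts and 0 lower (5 and 0 without the block), with a median of 2.46. Of the higher genes, Trpc6, Kcnk3, Kcnj8, Abcc9 and Gja4 also belong to the 26 pericyte genes, so this count too repeats part of theirs. Trpc6 stood at 404 and 385 CPM in pericytes and 1.51 and 3.15 CPM in fibroblasts, and was found in 14 and 42 members (6.88 ± 0.53, adjusted p = 9.01e-14). Kcnk3, a potassium leak channel of the pulmonary circulation, stood at 826 and 655 CPM against 36.2 and 11.2 (4.81 ± 0.42, adjusted p = 1.83e-12). The ATP-sensitive potassium channel of brain pericytes, made of Kcnj8 and Abcc9, was sparse. Kcnj8 stood at 52.7 and 130.1 CPM against 18.1 and 13.5 (adjusted p = 0.000493) and Abcc9 at 17.6 and 70 CPM against 9.04 and 4.05 (adjusted p = 0.00655). Both were called against fibroblasts, with differences of 0.91 and 2.93 and of 0.33 and 3.53 in the separate mice. The connexin genes Gja4 and Gjc1 stood at 141 and 330.2 CPM and at 229 and 415 CPM, against 5.27 and 4.5 and against 21.8 and 42.3 in fibroblasts.

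The Trpc6 gene lies at chr9:8544142-8680741 on the plus strand of GRCm38, and its promoter is shown because Trpc6 led both contrasts and held the one CArG box among the promoters of the pericyte genes. The CArG box is the motif bound by serum response factor in muscle genes. The window runs from 250 bases before to 50 bases after the gene's start in the RefSeq annotation of GRCm38.p6, and the promoter of the contractile gene Myl9 is set beside it, with the box in capitals.
Trpc6, chr9:8543892-8544191, plus strand: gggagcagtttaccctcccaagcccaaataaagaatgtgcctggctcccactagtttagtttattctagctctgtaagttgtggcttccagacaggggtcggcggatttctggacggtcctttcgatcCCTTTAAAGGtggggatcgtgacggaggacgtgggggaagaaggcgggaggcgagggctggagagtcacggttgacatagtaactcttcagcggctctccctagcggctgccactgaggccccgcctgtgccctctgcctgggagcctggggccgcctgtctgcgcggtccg
Myl9, chr2:156775214-156775513, plus strand: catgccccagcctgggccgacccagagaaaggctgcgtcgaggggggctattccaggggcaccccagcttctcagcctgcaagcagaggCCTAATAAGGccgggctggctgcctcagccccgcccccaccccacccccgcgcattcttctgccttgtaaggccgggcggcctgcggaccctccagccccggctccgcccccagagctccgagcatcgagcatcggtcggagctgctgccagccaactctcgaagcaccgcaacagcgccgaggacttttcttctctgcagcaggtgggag
The box begins 122 bases before the start in Trpc6 and 161 bases before it in Myl9, and it reads as a CArG box on both strands. It was found in 535 of 32851 such promoters (1.63%), in promoters of 2 of the 15 contractile genes that could be matched (Myl6 and Myl9) and of 1 of 18 matched pericyte genes. The letters TGGGAA, the core bound by the Notch partner RBPJ, were found on either strand in 11 of the 25 promoters of the pericyte genes (44.0%). They were found in 25.6% of all promoters and in 3 of the 18 promoters of the contractile genes (16.7%). The 25 promoters belong to 18 matched genes, so some genes count more than once, and the shares were not compared by a test. These matches are descriptions of sequence.

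Among Notch genes outside the rule, receptors, a ligand and some targets were higher than in fibroblasts. Of 16 tested, 6 were higher than in fibroblasts and 0 lower (3 and 0 without the block), with a median of 1.79. In Batch 1 a single member gave 25 of the 90 pericyte UMIs of this list. The list summed to 1582 and 1206 CPM in pericytes and to 928 and 1119 CPM in cells with Pecam1. The part of endothelial RNA in these values was not tested. The receptor Notch4 stood at 35.2 and 100.1 CPM against 1.51 and 5.85 (adjusted p = 5.91e-06), and Notch1 at 158 and 110.1 CPM against 49 and 29.7 (adjusted p = 0.0221). Notch2 was also called, at 105 and 125 CPM. The ligand Jag1 was called at 123 and 35 CPM against 6.03 and 9.45 (adjusted p = 0.00932), while Dll1 and Dll4 had 0 UMIs in pericytes. The target Heyl stood at 457 and 195 CPM against 39.2 and 21.6 (2.91 ± 0.41, adjusted p = 7.65e-07), and Nrarp, a feedback inhibitor, at 211 and 70 CPM against 3.01 and 1.35 (adjusted p = 1.99e-07). Hes1 was not called, at 229 and 475 CPM against 223 and 281. Against Acta2 mural cells 0 of the 16 were called, beside 0.686% of all genes, so this count does not tell Notch genes from the rest. Hey2 stood at 17.6 and 15 CPM in pericytes and 108 and 197 CPM in the mural cells (adjusted p = 0.17).

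Calls among the other vessel signal genes went in both directions against fibroblasts. Of 16 angiopoietin, TGF-beta and sphingosine phosphate genes, 1 was higher and 2 were lower (0 and 1 without the block), beside 8.29% called among all genes. Angpt1, the ligand by which mural cells act on the endothelial receptor Tek, stood at 158 and 370.2 CPM in pericytes and 133 and 271 CPM in fibroblasts (adjusted p = 0.844). The TGF-beta receptors Tgfbr2 and Tgfbr3 were lower, Tgfbr2 at 17.6 and 15 CPM against 141 and 169 (adjusted p = 2.15e-05). The co-receptor Eng, listed also among the endothelial markers, was higher at 87.9 and 80 CPM against 14.3 and 9.45 (adjusted p = 0.00173), and the part of endothelial RNA in this was not tested. Of 5 PDGF genes outside the rule, 3 were tested and 1, Pdgfra, was lower, at 0 and 5.0 CPM against 76.8 and 119 (adjusted p = 1.98e-05). Pdgfb itself had 1 UMI in the 131 members.

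Transcription factors of the lung mesenchyme separated the classes in both directions. Of 28 listed, 21 were tested, 11 were higher than in fibroblasts and 2 lower (4 and 0 without the block), with a median of 1.10. Ebf1, a factor of mural and other mesenchymal cells, stood at 598 and 530.3 CPM against 11.3 and 11.2 (5.25 ± 0.37, adjusted p = 3.72e-15). Tbx5 and Tbx4, lung field factors, stood at 650.5 and 625 CPM and at 281 and 340.2 CPM, against 142 and 103 (adjusted p = 3.75e-06) and against 142 and 108 (adjusted p = 0.0286). Epas1, the hypoxia-inducible factor HIF-2 alpha, stood at 334 and 265 CPM against 24.1 and 36.4 (adjusted p = 2.63e-07). Foxs1, Foxf1, Foxf2, Heyl, Mef2c, Zeb2 and Nfatc4 were the other higher genes. Meox2 was lower, at 52.7 and 0 CPM against 303 and 70.2 (adjusted p = 1.35e-05), as was Mef2a. Tbx2 and Nr2f2 were not called, Nr2f2 at 721 and 585 CPM and 731 and 609 CPM.

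**Figure D3:**
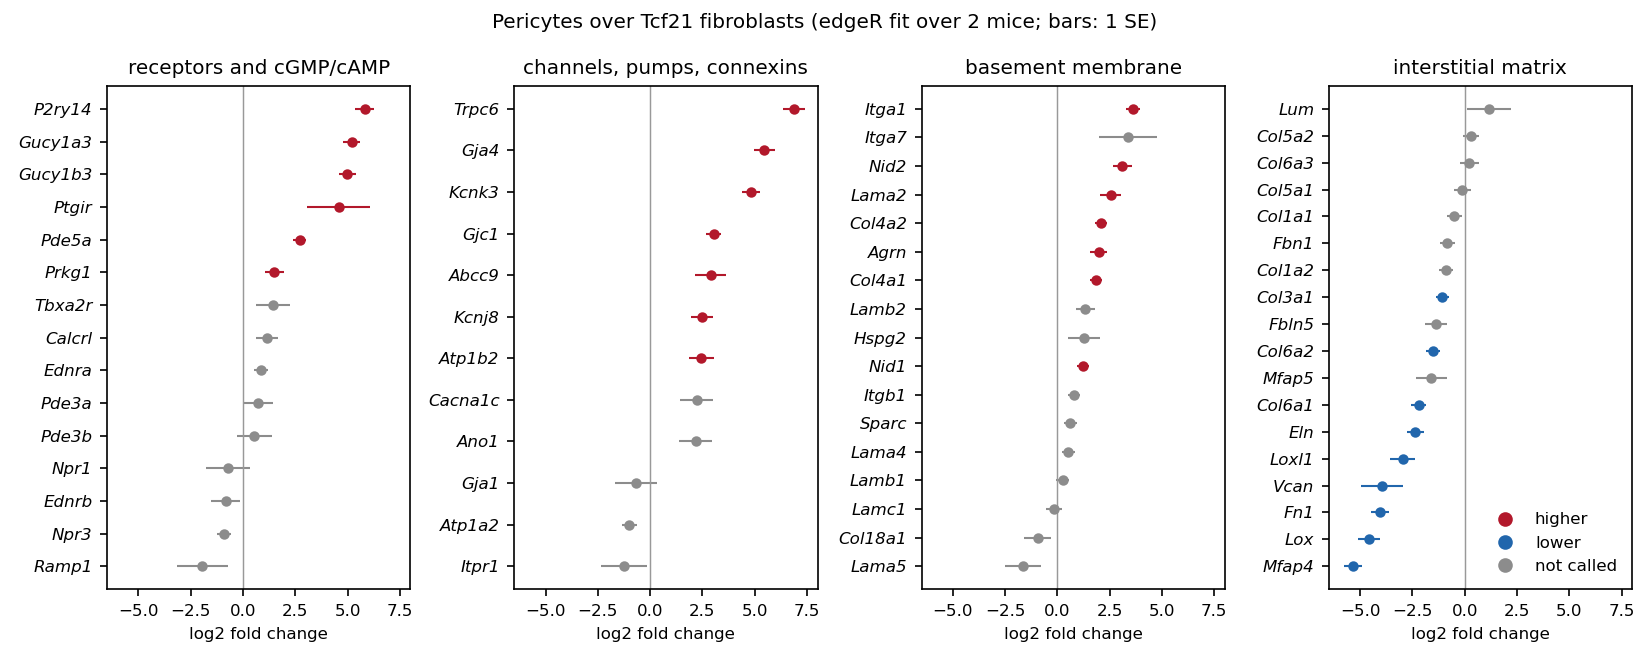
Log2 fold changes of pericytes over Tcf21 fibroblasts, with bars of 1 standard error, for 4 gene lists, leaving out genes that were not tested or had 0 UMIs in pericytes. Red genes were called higher, blue lower and grey not called, from Trpc6 at 6.88 ± 0.53 to Mfap4 at -5.35 ± 0.42.

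The matrix genes split between the basement membrane and the interstitium. Of 18 basement membrane genes, 17 were tested, 7 were higher than in fibroblasts and 0 lower (6 and 0 without the block), with a median of 1.27. Col4a1 and Col4a2, the chains of the common type IV collagen, stood at 2127 and 2692 CPM and at 1055 and 1911 CPM. In fibroblasts they stood at 409 and 616 CPM (adjusted p = 5.29e-06) and at 217 and 329 CPM (adjusted p = 5.77e-07). The nidogens Nid1 and Nid2, Lama2, Agrn and the collagen-binding integrin subunit Itga1 were the other higher genes. Itga1 stood at 264 and 440.3 CPM against 24.1 and 23.4 (3.61 ± 0.35, adjusted p = 4.45e-11). Sparc, which binds collagen, was found in all members and was not called, at 5010.2 and 5333 CPM against 2944 and 2288.

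Of 19 interstitial matrix genes, 0 were higher than in fibroblasts and 10 lower (0 and 4 without the block), with a median of -1.51. In Batch 1 a single member gave 103 of the 318 pericyte UMIs of these genes. Mfap4, a microfibril protein, stood at 158 and 50 CPM against 3939.7 and 1788 (-5.35 ± 0.42, adjusted p = 9.01e-14). Fn1, fibronectin, stood at 158 and 25 CPM against 950.5 and 686 (adjusted p = 2.53e-10). Lox, which cross-links collagen and elastin, stood at 87.9 and 30 CPM against 313 and 1361 (adjusted p = 5.93e-09), and Eln at 105 and 140.1 CPM against 385 and 626 (adjusted p = 2.95e-05). The fibrillar collagen genes Col1a1 and Col1a2 were not called, Col1a2 at 1811 and 2011 CPM and 3321 and 2541 CPM, while Col3a1 was lower (adjusted p = 0.0242).

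All 8 matrix fibroblast markers were lower than in fibroblasts, with and without the block. Their median was -5.15, and -4.23 with the genes at 0 UMIs set at their bound. Limch1, an actin-binding protein, stood at 123 and 45 CPM against 2191 and 3065 (-5.66 ± 0.44, adjusted p = 7.61e-14), and Col13a1 at 35.2 and 5.0 CPM against 600.2 and 289. The 10 genes furthest down had 0 UMIs in all 131 members. Smoc2, a matrix protein of fibroblasts, was at least 21.3-fold lower, Echdc2 at least 15.2-fold, the glutamate receptor gene Gria3 at least 11.5-fold and the hedgehog-binding gene Hhip at least 11.1-fold. Fgf10 and Fgf7, growth factors that mesenchyme sends to lung epithelium, were at least 10.6-fold and 10.2-fold lower. Slc36a2, Scube2, Adamtsl2 and Slit2 had bounds of at least 6.87-fold. Fgf10 stood at 89.6 and 144 CPM in the fibroblasts. Of the 8 adventitial fibroblast markers, 4 were lower (Dpt, Dcn, Igfbp4 and Col14a1), and 0 were called without the block. Of the 7 tested myofibroblast markers Stc1 was higher and Hhip and Pdgfra were lower.

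Mitochondrial paralogues went in opposite directions in 2 of 3 pairs. Cox4i2, the lung-enriched isoform of a cytochrome c oxidase subunit, stood at 1459 and 1011 CPM in pericytes against 21.1 and 13.9 in fibroblasts (5.77 ± 0.41, adjusted p = 3.72e-15). The ubiquitous Cox4i1 was lower, at 615 and 700.4 CPM against 991 and 932 (-0.93 ± 0.29, adjusted p = 0.0372), a call lost with library totals (adjusted p = 0.0946). Ndufa4l2, which HIF-1 induces, stood at 703 and 610.4 CPM against 41.4 and 11.2 (4.49 ± 0.41, adjusted p = 9.53e-12). Its paralogue Ndufa4 was lower, at 105 and 70 CPM against 479.8 and 376 (-2.73 ± 0.38, adjusted p = 5.48e-07). In these 2 pairs one member was higher and the other lower than in fibroblasts, in each mouse. In the third pair Higd1b stood at 1547 and 1146 CPM against 21.8 and 14.8 (5.84 ± 0.38, adjusted p = 6.89e-16), and Higd1a was not called, at 123 and 65 CPM against 145 and 127. Without the block, 3 of the 6 were higher and 1 lower.

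**Figure D4:**
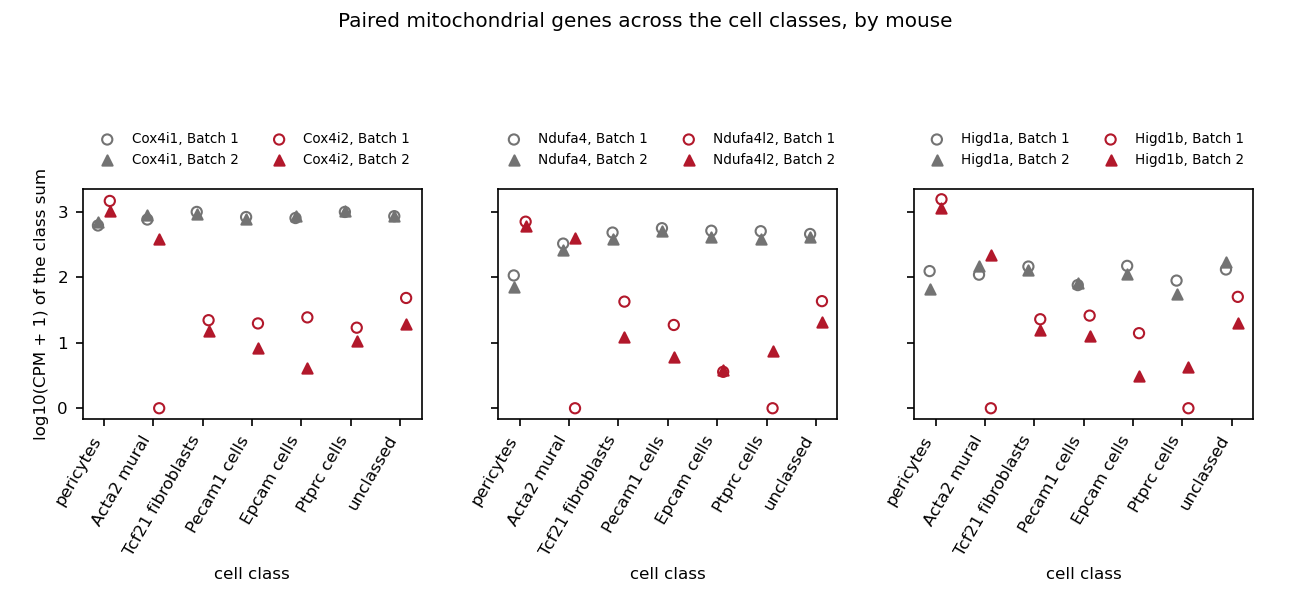
Levels of the 3 mitochondrial paralogue pairs, as log10(CPM + 1) of the class sum, in the 7 gated classes, with circles for Batch 1 and triangles for Batch 2. Ndufa4l2 stood at 703 and 610.4 CPM and Ndufa4 at 105 and 70 CPM in pericytes, where fibroblasts had 41.4 and 11.2 and 479.8 and 376.

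Cell cycle genes were sparse. Of 13 S phase genes tested 0 were called against fibroblasts, beside 8.29% of all genes, and 0 also passed with DESeq2. Of 14 G2/M genes 1, Hmgb2, was lower (adjusted p = 0.0238), a call lost with DESeq2, with library totals and without the block. Counts this small do not tell either list from all genes. Mki67, present in cycling cells, was found in 1 and 2 members, at 17.6 and 10 CPM. Immediate early genes, which encode factors induced within minutes of a stimulus, were far apart between the mice. Fos stood at 35.2 and 735 CPM in pericytes and 102 and 2361 CPM in fibroblasts (adjusted p = 0.037). Of 16 such genes 4 were lower than in fibroblasts (Fos, Junb, Btg2 and Klf6), 1 with DESeq2, 1 with library totals and 0 without the block. The 16 genes summed to 1547 and 3972 CPM in pericytes and to 1366 and 8800.5 CPM in fibroblasts. The sum in pericytes was thus higher in Batch 1 and lower in Batch 2. In Batch 1 a single member gave 22 of its 88 UMIs.

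Against the Acta2 mural cells, pericytes were higher in 53 genes and lower in 25 of 11369 tested, which is 0.686% of all genes (0.466% higher and 0.22% lower). Counts of list genes called against mural cells below are to be read beside these shares. The higher calls were 68.0% of all calls here, 50.9% with DESeq2 (29 and 28 of 1667 genes with an adjusted p) and 34.5% with library totals (19 and 36), and the median of all genes was 0.43, 0.05 and 0.09. Without the block 0 genes were called in either direction, and 901 had an unadjusted p under 0.05. The Batch 1 mural sum held only 3 cells. Without it 25 genes were higher and 25 lower.

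Contractile genes were the group lower in pericytes. Of 20 listed 17 were tested, 8 were lower than in mural cells and 0 higher, beside 0.22% lower and 0.466% higher among all genes. The median was -1.81, beside 0.43 over all genes. The lower genes numbered 5 of the 9 with an adjusted p from DESeq2, 8 with library totals and 0 without the block. Acta2 itself set the classes apart and was not tested, at 52.7 and 40 CPM in pericytes and 4335 and 2714 CPM in mural cells. Tagln, the actin-binding transgelin, stood at 123 and 160.1 CPM against 3034 and 1628 (-3.25 ± 0.40, adjusted p = 1.17e-06). Tpm1 and Tpm2, tropomyosins, were lower, Tpm2 at 35.2 and 80 CPM against 1192 and 576 (-2.92 ± 0.55, adjusted p = 0.00139). Myl9, the regulatory light chain of smooth muscle myosin whose promoter is printed above, stood at 70.3 and 55 CPM against 650.2 and 444 (-2.73 ± 0.68, adjusted p = 0.0374). Lmod1 and Mustn1 were lower too, Mustn1 at 52.7 and 90.1 CPM against 867 and 822 (adjusted p = 0.000139). Actg2, an enteric-type smooth muscle actin, had 3 UMIs in the pericytes and 28 in the mural cells, a ratio of 34.2 with a counting interval of 10.6 to 176, and Map3k7cl had 0 and was at least 12.2-fold lower. Each called gene was lower in both mice, but in Batch 1 a single cell of the 3 mural cells gave 118 of the 157 UMIs of the 20 contractile genes.

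Some listed contractile genes were not called against mural cells. Myh11, smooth muscle myosin heavy chain, stood at 87.9 and 235 CPM in pericytes, 325 and 724 CPM in mural cells and 10.5 and 5.85 CPM in fibroblasts. Its pericyte values were the lower ones in both mice without passing the test against mural cells (adjusted p = 0.211), and it was higher than in fibroblasts (4.23 ± 0.49, adjusted p = 7.99e-09). Des, the intermediate filament desmin, stood at 158 and 220.1 CPM in pericytes, above the 108 and 82.2 CPM in mural cells, where it was not called (adjusted p = 0.465), and the 20.3 and 10.3 CPM in fibroblasts, where it was (adjusted p = 5.04e-08). Mylk, Cald1, Myl6 and Flna were not called in either contrast, and Cald1 stood at 1002 and 1151 CPM in pericytes, 1734 and 2566 CPM in mural cells and 474 and 522 CPM in fibroblasts. Against fibroblasts, 5 contractile genes were higher (Myh11, Des, Lmod1, Smtn and Mustn1) and 2 lower (Tpm1 and Csrp1), or 4 and 2 without the block. Cnn1 and Myocd, a contractile gene and the coactivator of that programme, had 0 UMIs in the pericytes.

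**Figure D5:**
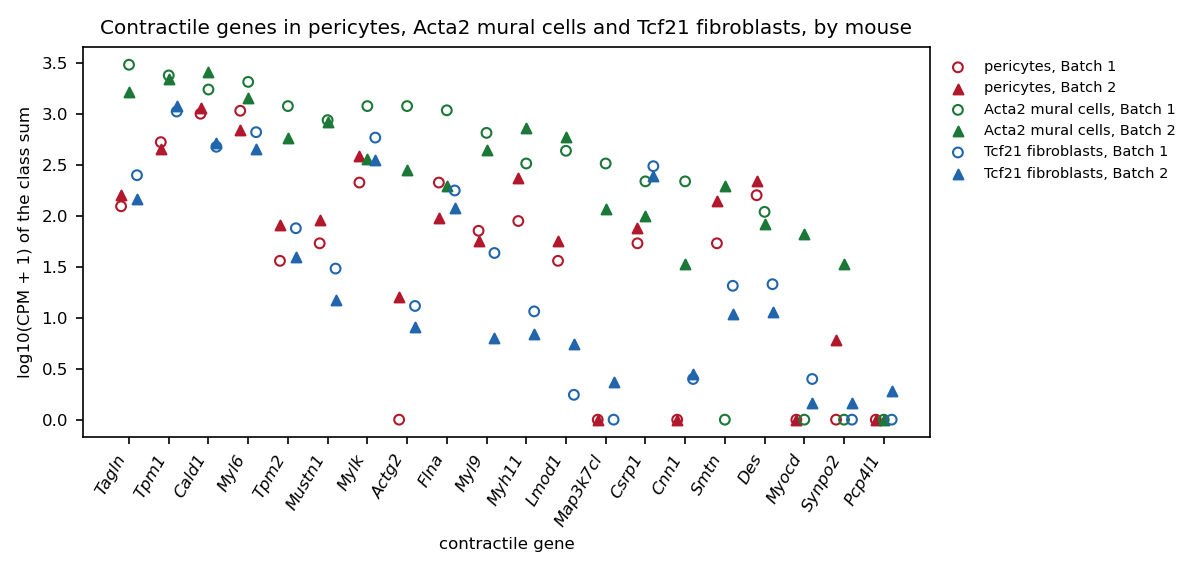
Levels of the 20 contractile genes, as log10(CPM + 1) of the class sum, in pericytes, Acta2 mural cells and Tcf21 fibroblasts, with circles for Batch 1 and triangles for Batch 2. Tagln stood at 123 and 160.1 CPM in pericytes and 3034 and 1628 CPM in mural cells, and Myh11 at 87.9 and 235 CPM and 325 and 724 CPM.

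Of the 24 tested pericyte genes outside the rule, 8 were higher than in mural cells and 0 were lower, beside 0.466% higher and 0.22% lower among all genes. These genes were listed with earlier results of these data known, so the count describes the list and is no independent evidence for the label. The median was 1.52, and 1.41 with the genes at 0 UMIs set at their bound, beside 0.43 over all genes. With library totals 4 were called, with DESeq2 4 of the 13 that it gave an adjusted p, and without the block 0. Higd1b stood at 1547 and 1146 CPM against 0 and 214 (3.03 ± 0.48, adjusted p = 0.000172). Rgs5 stood at 439 and 931 CPM against 0 and 181 (2.69 ± 0.49, adjusted p = 0.00111). Cox4i2, Gucy1a3, Gucy1b3, Pde5a, P2ry14 and Trpc6 were the others. In Batch 2 alone, with its 21 mural cells, the log2 differences were 2.67 for Higd1b and 2.61 for Rgs5. The 3 of these mural cells with 2 UMIs of Acta2, just past the limit, had Rgs5 at 1290.3 CPM and Higd1b at 1129 CPM, where the other 18 had 54.9 and 109.9 CPM. Trpc6 had 0 UMIs in the 24 mural cells and was at least 9.09-fold higher in pericytes. Ebf1, Heyl and Foxs1 were not called between the mural classes, with Ebf1 at 598 and 530.3 CPM and 542 and 724 CPM.

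The 10 genes furthest up against mural cells rested on 0 or 1 mural UMI. Besides Trpc6, those at 0 were Fjx1, at least 4.36-fold higher, Tmem178 (at least 3.73), Cds2 (at least 3.09), Sh2b3 (at least 3.00) and Trim2 (at least 2.73). Cxcr4, the receptor of the chemokine CXCL12, stood at 369 and 275 CPM in pericytes with 1 mural UMI, a ratio of 20.7 with a counting interval of 3.61 to 829. Adk, Pagr1a and Acap2 had ratios of 14.2, 14.7 and 13.9 on 1 UMI. DESeq2 gave none of these 10 an adjusted p. Without the block 0 were called, with library totals 1 and without the Batch 1 mural sum 3. Tbx5 and Tbx4 were also called higher, at 0 and 164 CPM and at 0 and 65.8 CPM in mural cells, as were Col4a1 and Itga1. With library totals or without the block none of these 4 was called, and DESeq2 called Tbx5 and Col4a1 and gave the other 2 no adjusted p.

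The other genes furthest down were Tgfbi, Lsp1 and Actn1. Actn1, which cross-links actin, stood at 52.7 and 20 CPM against 759 and 345 (-3.52 ± 0.73, adjusted p = 0.00533). Tgfbi, a marker of alveolar myofibroblasts, stood at 17.6 and 15 CPM against 1734 and 115, and in Batch 1 it was found in 1 of the 3 mural cells, which held 16 of the 17 UMIs of myofibroblast markers in that sum. Its difference turned in direction when the rule was made stricter or cells were thinned, both of which left the Batch 1 mural sum with 0 cells. Genes of other cell types were called here as well. Of the 5 erythroid markers 4, and Sftpc and Scgb1a1, were higher in pericytes than in mural cells. Scgb1a1 and the endothelial markers Egfl7 and Eng were called higher against fibroblasts, and Egfl7 differed by 2.64 and -0.07 in the separate mice. The part of such RNA in the other results was not tested.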

How the data were processed

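Whole lungs of 2 mice (1 per batch) were dissociated and profiled by Drop-seq. The authors aligned reads to mm10 with bowtie2 2.2.7 and deposited whole-number UMI counts per gene and cell, with no normalization. No other file or column was used. Members and gene lists were chosen with earlier results of these data known.

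Cells over 10% mitochondrial UMIs were removed. No doublet caller was run; as an alternative, likely doublets (the top 5% of cells by UMIs in a batch, and pericytes or mural cells with a UMI of Cdh5 or Cldn5) were left out. Classes were gated as given above and then by Tcf21, Pecam1, Epcam and Ptprc, with the rest unclassed. Counts were summed into 14 sums (7 classes, 2 mice), filtered with filterByExpr, scaled by TMM and tested with edgeR 4.0.16 (quasi-likelihood, mouse as block, Benjamini-Hochberg adjustment, called at 0.05) in R 4.3.3; DESeq2 1.42.0 was an alternative. Sums of 1 mouse pair by origin, and their deviations correlated with a median of 0.16 (0.0586 to 0.537). With 2 mice, the edgeR p-values rest on 6 residual degrees of freedom and on a prior of 39.5 taken from the spread of all genes. Named genes were gate genes, list genes, the 10 furthest in each direction of a contrast with 50 CPM or more in both batches of the higher class, and the 20 furthest above the rest; some genes that these rules name are not reported here. Python 3.11.15 was used. The edgeR fit was run on simulated class sums with known changes in pericytes. These sums held no mouse effect and no gating, so they cannot check those parts. Coordinates are GRCm38. A fold at 0 counts takes a floor of 3 counts over the group.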

Additional observations from a re-analysis of the deposited data

Results flagged for a closer look

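In Batch 2, 60 cells with more than 10% mitochondrial UMIs met every other condition of the pericyte rule, and they were outside all comparisons. They were 3.09% of the cells over the limit, where pericytes were 1.71% of the cells within it. Their median was 1870 UMIs, 58 of the 60 held at least 3 UMIs of the 26 pericyte genes outside the rule, and those genes summed to 14913 CPM. Batch 1 had 0 such cells among 1 over the limit.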

How the results depend on the processing

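The calls of the fibroblast contrast held better than those of the mural contrast. All 20 genes named furthest up or down against fibroblasts kept their call in every alternative fit, without the block too. Genes higher than in fibroblasts numbered 433, and 209 with no replicate block and 216 with thinned cells. Genes lower numbered 509, and 165 with no replicate block, 795 with no filter beyond 1 count, 305 with DESeq2, 310 with library totals and 839 with a minimum of 5 pericyte UMIs. Genes higher than in mural cells numbered 53. They were 0 with no replicate block, 29 with DESeq2 (which gave 1667 of 11369 genes an adjusted p), 19 with library totals, 17 with the minimum of 5, 16 with thinned cells, 95 without likely doublets, 98 with mural cells taken without the 3-UMI minimum and 25 without the Batch 1 mural sum. Genes lower numbered 25, and 0 with no replicate block, 42 in the fit of only those classes, 8 with thinned cells, 50 without likely doublets and 76 with the wider mural class. The minimum of 5 and the thinning removed the Batch 1 mural sum, which then had 0 cells. Tgfbi turned to 0.24 and 0.22 with the minimum of 5 and with thinned cells, and to 7.32 without mural cells holding it, which sets its mural count to 0 by construction. The cause of the other shifts was not tested. The pericyte shares moved to 0.921% and 1.14% with the minimum of 5, 0.913% and 0.953% with thinned cells and 2.89% and 3.21% without the 3-UMI minimum, and in Batch 2 to 1.16% with a mitochondrial limit of 5%. The wider mural class, the mural cells without Tgfbi, pericytes without Tcf21, library totals, the fit without the Batch 1 mural sum, the shares without the 3-UMI minimum and the removal of members with 10 or more Sftpc UMIs were chosen after seeing the data. Leaving out a mouse leaves differences with no test. Of the 20 genes named against fibroblasts, 13 moved from the fitted value without Batch 1 and 19 without Batch 2. Of the 20 named against mural cells, 7 and 17 moved. With 35 and 96 members and 3 and 21 mural cells, genes under a few UMIs per class could not be told apart from 0.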
